A study of Homo sapiens with 6 samples.

Results

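The LY6 and uPAR domain family was followed in HCC827OR, an osimertinib-resistant derivative, against its parental lung adenocarcinoma line HCC827, with 3 libraries of messenger RNA sequenced for each. Members were the rows whose gene name begins with LY6 or LYPD or equals LYNX1, PSCA, SLURP1, PLAUR, CD59 or PINLYP. This found 8 of the table's 4439 genes, which were LY6D, LY6E, LYNX1, LYPD1, LYPD3, LYPD5, LYPD6B and PINLYP. In the GENCODE release 29 annotation 26 protein-coding genes meet the same rule by name, and the 18 without a row, among them PLAUR (the urokinase receptor uPAR), CD59, PSCA and SLURP1, were not analysed here. HCC827 carries an activating EGFR mutation and is sensitive to osimertinib, an inhibitor of mutant EGFR. HCC827OR was derived from HCC827 under osimertinib raised stepwise, through 10, 50, 100 and 500 nM up to 1 µM and finally 5 µM, with 1 month at each concentration. The labels give neither the clonal state of HCC827OR, nor drug at harvest, nor separate cultures for the 3 libraries of a line, so each p-value reflects library-to-library spread that could be purely technical.

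Proteins of this family share the LU domain, a small extracellular fold of finger-like loops pinned together by disulfide bonds, which is also found in snake neurotoxins and in the ligand-binding part of TGF-beta family receptors. Most members are held on the cell surface by a glycosylphosphatidylinositol (GPI) anchor, and a few are secreted. Known roles include protection of cells from complement (CD59), binding of the protease urokinase (uPAR), and tuning of nicotinic acetylcholine receptors (LYNX1 and its relatives). Several members mark stratified epithelia such as the epidermis and oesophagus.

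Expression is given as the authors' normalized value per gene, whose unit is not named, and levels are therefore not compared between genes. Depth is unknown, and the values of the table's genes summed to between 149956 and 152065 in HCC827OR libraries and between 115790 and 145175 in HCC827 libraries. Every gene of the table had already been called different by the authors between these same libraries, 2392 higher and 2047 lower in HCC827OR. No count or p-value below is therefore independent evidence of a difference. Of 10 lung adenocarcinoma markers 9 were in the table and all 9 fell, their summed value lying between 2151.77 and 2194.11 in HCC827OR libraries and between 6712.54 and 8223.19 in HCC827 libraries. These sums are mostly KRT7, KRT18 and KRT19. Of 10 fibroblast markers 5 were in the table, all called higher by the authors, with sums of 32.07 to 35.69 in HCC827OR and 0.43 to 0.8 in HCC827. In HCC827OR the fibroblast sums are mostly LUM (25.35 ± 1.755, against 0.08 ± 0.0755 in HCC827). COL3A1 and PDGFRB had means of only 0.81 and 0.953 in HCC827OR. No leukocyte marker of 10 had a row. Of 6 endothelial markers 3 were in the table, with sums of 1.11 to 1.62 in HCC827OR and 4.96 to 10.16 in HCC827. These sums are mostly PECAM1, which fell (1.08 ± 0.326 in HCC827OR and 6.77 ± 2.92 in HCC827), while the authors called VWF and TEK, both at 0.16 or less in every library, higher. The extraction protocol speaks of retinas, and of 12 retinal markers only PDE6A and RPE65 were in the table, with sums of 0.43 to 0.55 in HCC827OR and 0.52 to 1.12 in HCC827. EGFR, the drug's target, had 24.35, 23.81 and 25.21 in HCC827OR, against 630.91, 570.74 and 471.79 in HCC827. The part of these marker levels in the results below was not tested.

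In HCC827OR 6 of the 8 members were lower and 2 were higher than in HCC827 in the authors' deposited table, where 46.1% of all genes were lower and 53.9% higher. The lower members were LY6D, LY6E and LYNX1 of chromosome 8, LYPD1 and LYPD6B of chromosome 2 and LYPD5 of chromosome 19, and the higher ones were LYPD3 and PINLYP, also of chromosome 19. The values of the lines did not overlap for any of the 8 members, as for 95.2% of the table's genes. Values reached 1 in at least 3 of the 6 libraries for 4 members, which were tested with limma on log2(value + 1). Of these, LY6D, LY6E and LYPD1 fell and LYPD3 rose at a Benjamini-Hochberg adjusted p below 0.05, against 45.0% of all tested genes called lower and 52.5% called higher. LY6D would have passed the filter through HCC827 alone and LYPD3 through HCC827OR alone, the line where each was high. In bulk RNA, fewer cells with a transcript and less of it per cell cannot be told apart.

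**Figure D1:**
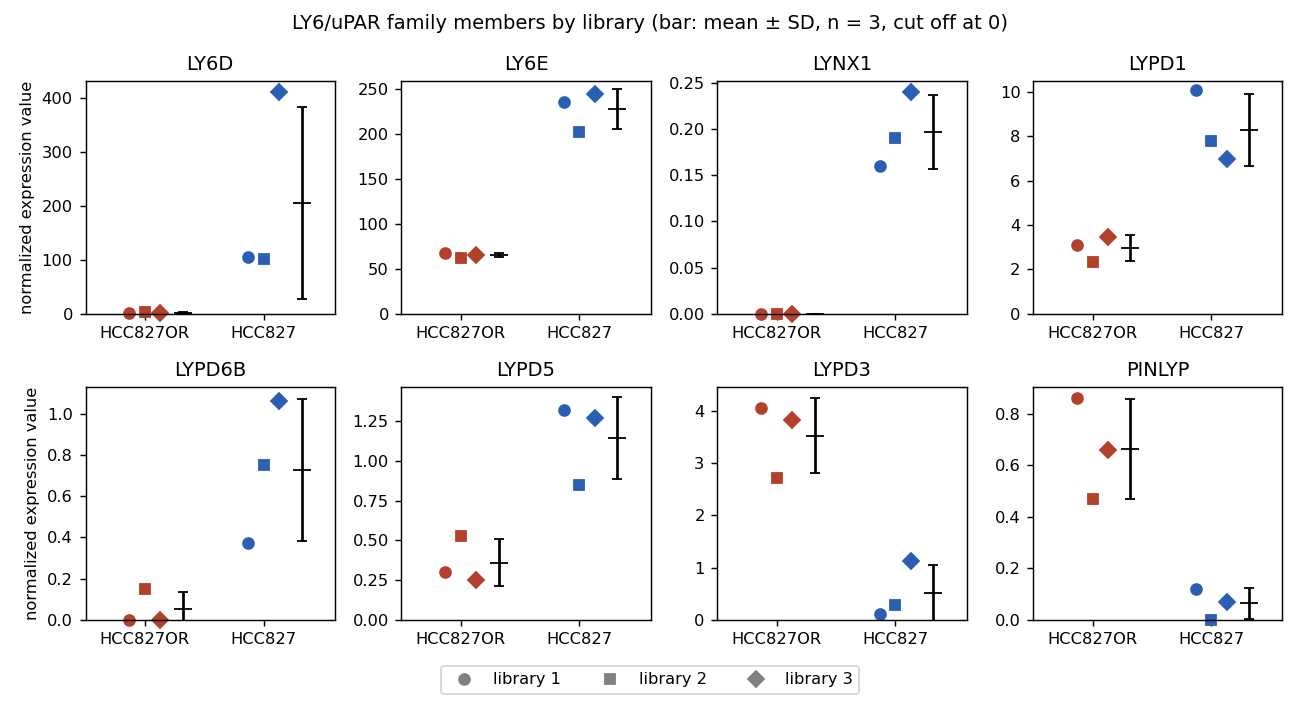
Normalized expression value of each of the 8 members in each library, on linear axes that start at 0 and differ between panels, with HCC827OR in red and HCC827 in blue, symbols for library numbers, and the mean with its SD beside them. LY6D, LY6E, LYNX1, LYPD1, LYPD6B and LYPD5 lie lower in all HCC827OR libraries, and LYPD3 and PINLYP lie higher.

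LY6D, a GPI-anchored antigen of keratinocytes (ENSG00000167656; GRCh38 chromosome 8, 142784880 to 142786592, minus strand), was nearly lost. It had values of 1.76, 2.87 and 0.4 in HCC827OR libraries 1 to 3, against 104.44, 100.27 and 410.12 in HCC827 libraries 1 to 3. All HCC827OR libraries lay far below all HCC827 libraries, and HCC827 library 3 stood well above the other HCC827 libraries. The means were 1.68 ± 1.24 in HCC827OR and 204.9 ± 178 in HCC827 (SD, n = 3 each), a 122-fold difference. Its log2 fold change was -6.05 (SE 0.609, 95% interval -7.5 to -4.61, limma adjusted p = 7.19e-05), the 9th largest of the 1500 falls. Without HCC827 library 3 the HCC827 mean was 102 and the difference 61.1-fold, and without HCC827OR library 2 the HCC827OR mean was 1.08 and the difference 189.8-fold. LY6D shares 1219 of its 1713 bases with AC083841.2, an antisense annotation on the opposite strand. The use of strand is not given, so reads of the shared stretch cannot be assigned with certainty.

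LY6E, a GPI-anchored protein known as an interferon-induced gene that modulates virus entry (ENSG00000160932; chromosome 8, 143017982 to 143023832, plus strand), fell but stayed expressed. Its values were 67.62, 62.22 and 65.55 in HCC827OR, against 235.35, 202.16 and 243.84 in HCC827. The libraries of each line lay close together, with a coefficient of variation of 4.18% in HCC827OR and 9.7% in HCC827, and the lines were well apart. The means of 65.1 ± 2.72 in HCC827OR and 227 ± 22 in HCC827 differed 3.49-fold (log2 fold change -1.78, SE 0.117, limma adjusted p = 1.03e-05). LY6E shares 456 bases with LY6E-DT on the opposite strand, so reads of that stretch cannot be assigned with certainty.

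LYNX1, a membrane-tethered modulator of nicotinic acetylcholine receptors (ENSG00000180155; chromosome 8, 142771197 to 142777810, minus strand), was too low in both lines for the test. It was listed at 0 in all 3 HCC827OR libraries and had 0.16, 0.19 and 0.24 in HCC827 libraries. No fold is given against a line listed at 0. The authors' deposited table gives LYNX1 a log2 fold change of -6.55 with an adjusted p of 1.59e-05. LYNX1 lies wholly within the read-through gene LYNX1-SLURP2, on the same strand, so its reads are uncertain. None of 16 nicotinic receptor subunit genes had a row in the table.

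These members sit close together, LYNX1 7.1 kb from LY6D and LY6E 231.4 kb from LY6D, on chromosome 8. The annotation has 100 protein-coding genes there from 140 Mb on, and those without a row in this table of called genes were not analysed here. Of the 47 table genes of any type in that stretch, the 3 members among them, all 47 were called lower by the authors, against 46.1% of all table genes, and limma called 40 of 41 lower and 1 not (median log2 fold change -1.25, against 0.74 over all tested genes). The thioesterase superfamily gene THEM6, 48 kb from LY6D, had 4.18 ± 0.528 in HCC827OR and 16.1 ± 1.78 in HCC827 (n = 3 each). The log2 fold changes in limma were -1.72 for THEM6 and -1.78 for LY6E, while that of LY6D was -6.05, and whether these differ was not tested. TSNARE1, 381.6 kb from LY6D, had a log2 fold change of -0.7 (limma adjusted p = 0.0192). Around LY6E, the nearest table genes beyond the family were ZNF696, TOP1MT and THEM6, at 265.8, 280.6 and 281.1 kb, with limma log2 fold changes of -1.12, -1.33 and -1.72.

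**Figure D2:**
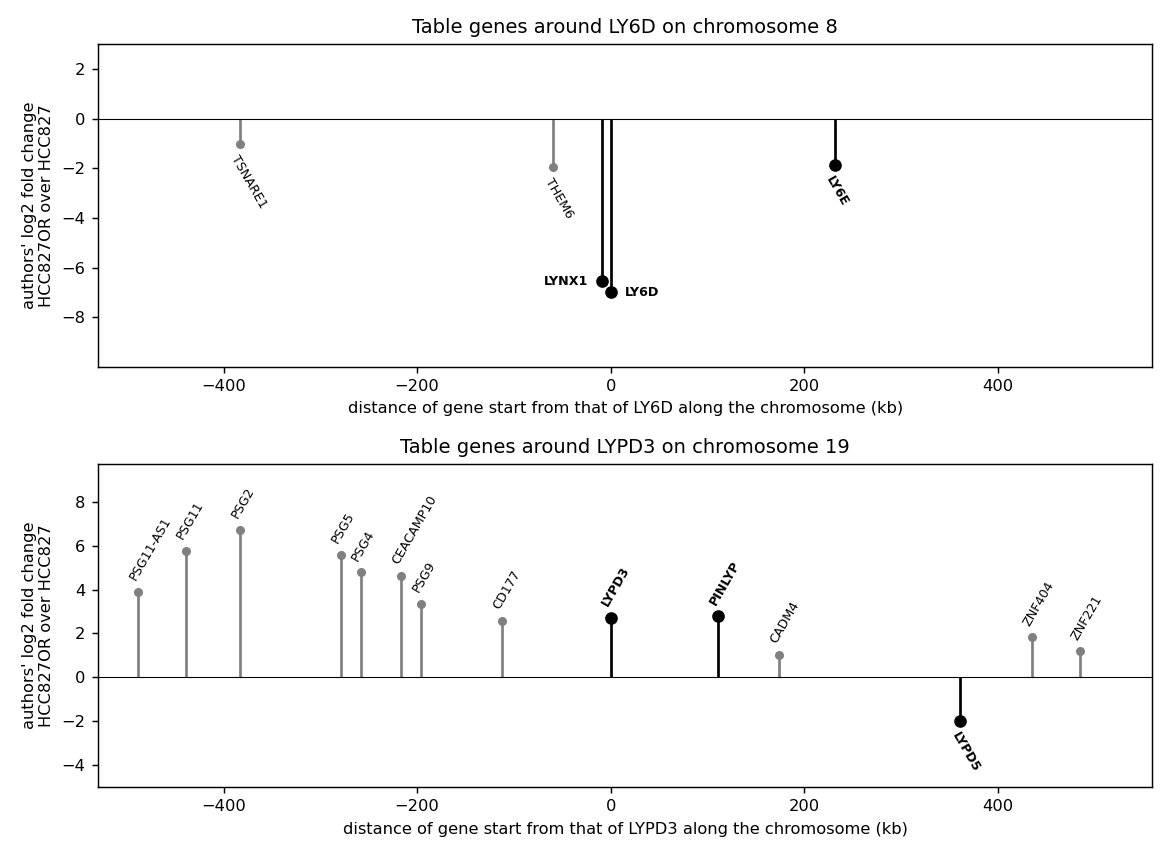
Log2 fold change of HCC827OR over HCC827 in the authors' deposited table (vertical axis) for every table gene whose start lies within 500 kb of that of LY6D (top) or LYPD3 (bottom), by distance along the chromosome in kb, with family members in black and bold. All genes around LY6D lie below 0, with LY6D at -6.98 and LYNX1 at -6.55, and all genes around LYPD3 lie above 0 except LYPD5 at -2.02.

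On chromosome 19 a group of uPAR-like genes was found on both sides. LYPD3 (C4.4A), PINLYP and LYPD5 lie in that order within 366.4 kb, with PLAUR between PINLYP and LYPD5. LYPD3 and LYPD5 encode GPI-anchored uPAR homologues of stratified epithelia, and PINLYP is named for its likeness to phospholipase A2 inhibitors. LYPD3 (ENSG00000124466; 43460787 to 43465660, minus strand) had 4.05, 2.71 and 3.82 in HCC827OR, against 0.12, 0.29 and 1.12 in HCC827. Every HCC827OR library was above every HCC827 library, and HCC827 library 3 lay nearest to them. The means were 3.53 ± 0.716 in HCC827OR and 0.51 ± 0.535 in HCC827, a 6.92-fold difference (log2 fold change 1.63, SE 0.258, 95% interval 1.02 to 2.24, limma adjusted p = 0.000646). Without HCC827 library 3 the HCC827 mean was 0.205 and the difference 17.2-fold.

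PINLYP (ENSG00000234465; chromosome 19, 43576800 to 43583964, plus strand) had 0.86, 0.47 and 0.66 in HCC827OR, against 0.12, 0 and 0.07 in HCC827. These values are low in both lines and were not tested by limma with the filter. The means were 0.663 ± 0.195 in HCC827OR and 0.0633 ± 0.0603 in HCC827. The HCC827 mean was 0.035 without its library 1 and 0.095 without its library 2. The authors' deposited table gives PINLYP a log2 fold change of 2.78 with an adjusted p of 0.00877. PINLYP shares 3674 bases with XRCC1 on the opposite strand and lies wholly within another opposite-strand annotation, L34079.1, and the use of strand is not given, so its reads are uncertain.

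LYPD5 (ENSG00000159871; chromosome 19, 43795929 to 43827206, minus strand) was the lower member of this group, with 0.3, 0.53 and 0.25 in HCC827OR, against 1.32, 0.85 and 1.27 in HCC827. The lines did not overlap, and only 2 libraries, both of HCC827, reached 1. The means were 0.36 ± 0.149 in HCC827OR and 1.15 ± 0.258 in HCC827, a 3.19-fold difference. The authors' deposited table gives LYPD5 a log2 fold change of -2.02 with an adjusted p of 0.000104.

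LYPD5 differed in direction from the table genes near it. Within 500 kb of LYPD5 the table held 7 other genes, all 7 called higher by the authors, where 53.9% of all table genes were. Of these 7, 6 are protein-coding, out of 36 protein-coding genes annotated in that window. Within 500 kb of LYPD3 the table held 13 genes, of which 12 were called higher and LYPD5 lower, and 11 of the 13 are protein-coding, out of 27 annotated. The neighbour nearest to LYPD3 was CD177, another GPI-anchored LU domain gene, known from neutrophils, 97.6 kb away. CD177 had 0.9, 0.78 and 0.91 in HCC827OR, against 0.17, 0.19 and 0.06 in HCC827. The adhesion gene CADM4, 38.4 kb from PINLYP, rose (5.82 ± 1.26 in HCC827OR and 2.56 ± 0.221 in HCC827, limma log2 fold change 0.92, adjusted p = 0.00149). The zinc finger genes ZNF404 and ZNF221, 45.2 and 124 kb from LYPD5, rose by 1.28 and 0.5 in limma log2 fold change (adjusted p = 0.000109 and 0.0241). Chosen after their values were seen, 5 pregnancy-specific glycoprotein genes on the other side of LYPD3, PSG2, PSG4, PSG5, PSG9 and PSG11, had log2 fold changes of 3.36 to 6.75 in the authors' deposited table. Only PSG5 met the filter and was tested (limma log2 fold change 4.19). PSG2, PSG4, PSG9 and PSG11 were too low for the test, PSG2 with the 6.75 among them, so their fold changes rest on low values. These PSG genes are near-identical copies, so their separate values are uncertain.

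The promoter windows of these chromosome 19 members, 250 bases before to 50 bases after the start, are shown because neighbours of one family were found at opposite levels there. They are RefSeq windows on GRCh38.p14, each on its gene's own strand, and those of PINLYP and LYPD5 lie inside the longer GENCODE gene spans given above. Capitals mark matches on either strand to any of 5 motifs, AP-1 (TGANTCA), an E-box bound by SNAIL and ZEB factors (CACCTG), the TATA box (TATAAA), the GC box (GGGCGG) and the TEAD motif (GGAATG), which in these windows are all GC boxes.
LYPD3 (higher in HCC827OR), chr19:43465559-43465858, minus strand: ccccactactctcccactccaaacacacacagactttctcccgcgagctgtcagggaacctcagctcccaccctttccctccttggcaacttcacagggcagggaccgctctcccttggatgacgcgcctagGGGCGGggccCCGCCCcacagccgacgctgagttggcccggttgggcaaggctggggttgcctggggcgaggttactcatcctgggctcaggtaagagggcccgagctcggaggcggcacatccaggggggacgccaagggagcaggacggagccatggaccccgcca
PINLYP (higher in HCC827OR), chr19:43580294-43580593, plus strand: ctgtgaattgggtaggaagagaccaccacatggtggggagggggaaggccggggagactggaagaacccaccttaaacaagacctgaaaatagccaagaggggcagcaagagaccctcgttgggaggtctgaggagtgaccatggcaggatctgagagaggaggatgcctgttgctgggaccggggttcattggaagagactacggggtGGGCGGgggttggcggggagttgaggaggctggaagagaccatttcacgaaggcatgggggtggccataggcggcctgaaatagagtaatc
LYPD5 (lower in HCC827OR), chr19:43802398-43802697, minus strand: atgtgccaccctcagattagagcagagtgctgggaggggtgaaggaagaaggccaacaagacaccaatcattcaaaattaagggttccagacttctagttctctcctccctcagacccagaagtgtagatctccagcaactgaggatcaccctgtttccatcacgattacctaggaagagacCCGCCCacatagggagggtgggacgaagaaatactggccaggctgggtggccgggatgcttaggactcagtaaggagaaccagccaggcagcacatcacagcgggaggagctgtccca

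The LYPD3 window held 2 GC boxes, at positions -118 and -108 from the start, and 17 CG pairs, against a median of 14 over 35116 RefSeq windows. PINLYP has a second RefSeq window that overlaps the one shown, from 43580356 to 43580655, with 9 CG pairs and a GC box at position -103. The PINLYP window shown held 1 GC box and 8 CG pairs, and the LYPD5 window 1 GC box and 5 CG pairs. A GC box was found in 45.0% of all windows. A match describes letters and is not evidence of a bound factor.

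On chromosome 2, both members were lower in HCC827OR. LYPD1, a relative of LYNX1 that binds nicotinic acetylcholine receptors (ENSG00000150551; 132644853 to 132671579, minus strand), had 3.08, 2.34 and 3.46 in HCC827OR, against 10.11, 7.77 and 6.96 in HCC827. All HCC827OR libraries lay below all HCC827 libraries, with a similar relative spread of 19.2% in HCC827OR and 19.8% in HCC827. The means of 2.96 ± 0.57 in HCC827OR and 8.28 ± 1.64 in HCC827 differed 2.8-fold (log2 fold change -1.22, SE 0.19, 95% interval -1.67 to -0.78, limma adjusted p = 0.000574). LYPD1 shares 1707 bases with the zinc receptor gene GPR39 and 6465 bases with AC010974.1, an antisense annotation, both on the opposite strand. Reads of these shared stretches cannot be assigned with certainty. GPR39 also fell, with 4.29 ± 0.545 in HCC827OR and 13.8 ± 1.17 in HCC827 (limma log2 fold change -1.48, adjusted p = 5.97e-05), and was the one other table gene within 500 kb.

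LYPD1 has a pair of RefSeq promoter windows, and the upstream one is shown because it holds 2 AP-1 motifs side by side, which 7.71% of all windows match at least once. Capitals mark the AP-1 motifs, at positions -217 and -210 from the start, and an E-box (CACCTG, here read on the other strand) at position -105, a motif found in 20.6% of windows.
LYPD1 (lower in HCC827OR), upstream start, chr2:132671477-132671776, minus strand: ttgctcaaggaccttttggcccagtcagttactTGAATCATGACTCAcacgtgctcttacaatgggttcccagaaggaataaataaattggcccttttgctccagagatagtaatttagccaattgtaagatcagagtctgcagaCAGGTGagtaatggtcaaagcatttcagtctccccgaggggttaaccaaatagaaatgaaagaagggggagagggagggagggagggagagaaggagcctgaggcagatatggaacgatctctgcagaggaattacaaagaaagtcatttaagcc
The downstream LYPD1 window held neither motif, but 2 GC boxes and 24 CG pairs against 3 CG pairs upstream. The deposited values are per gene, so which start was used was not tested.

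LYPD6B, also a relative of LYNX1 (ENSG00000150556; chromosome 2, 149038107 to 149215262, plus strand), was seen in 1 of 3 HCC827OR libraries, with 0, 0.15 and 0, against 0.37, 0.75 and 1.06 in HCC827. The HCC827OR mean of 0.05 rested on library 2 alone and was 0 without it, and the HCC827 mean was 0.727 ± 0.346. The authors' deposited table gives LYPD6B a log2 fold change of -3.81 with an adjusted p of 0.00749. LYPD6B shares 315 bases with the pseudogene TXNP5 on the opposite strand. The one table gene within 500 kb, the chromatin gene EPC2 at 250.5 kb, fell to 5.67 ± 0.633 in HCC827OR, against 11.3 ± 1.09 in HCC827 (limma adjusted p = 0.000711).

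With no filter on low values limma called all 8 members, 2 higher and 6 lower, where 52.0% of all 4439 genes were called higher and 42.5% lower. The adjusted p was 0.00201 for LYNX1, 0.00392 for LYPD6B, 0.00278 for LYPD5 and 0.000917 for PINLYP. On the log2(value + 1) scale the differences of these low members were small, -0.26 for LYNX1, -0.7 for LYPD6B, -0.66 for LYPD5 and 0.64 for PINLYP. Such a scale understates the change of low genes.

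**Figure D3:**
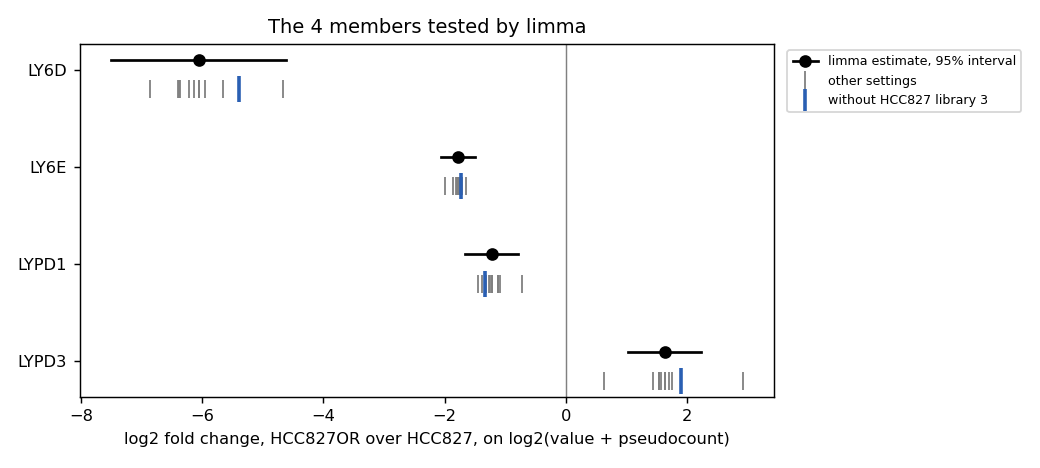
Limma log2 fold change of HCC827OR over HCC827 for the 4 tested members (points, with 95% intervals), with the same value under the other settings as ticks and that without HCC827 library 3 in blue. LY6D, LY6E and LYPD1 stay below 0 and LYPD3 above 0 under every setting that tested them, and the ticks of LY6D spread from -6.86 to -4.67.

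Members differed in how evenly the libraries of a line measured them. In HCC827 library 3 LY6D was 1.99 above the mean of the other HCC827 libraries on the log2(value + 1) scale, and only 1.02% of tested genes lay as far from them in either direction. LYPD3 was 0.82 above, and 16.4% of tested genes lay at least as far. The median size of this difference over all tested genes, whatever its sign, was 0.21 and 0.23 in HCC827 libraries 1 and 2. In library 3 it was 0.35, so that library lay further from the others across the tested genes. Against the library 3 median, LYPD1 at -0.31 and LY6E at 0.16 were not unusual. LYPD6B, at 0.41, was not among the tested genes, and this scale compresses its low values, so that median cannot place it. At least as far as LYPD1 lay 53.8% of tested genes, and as LY6E 72.9%. In HCC827OR, LY6D also varied most among the members on the log2(value + 1) scale, with differences of 0.25, 0.98 and -1.22 for libraries 1 to 3. By coefficient of variation LYPD6B varied more there (173.2%, against 73.78% for LY6D), with a value above 0 in library 2 alone.

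**Figure D4:**
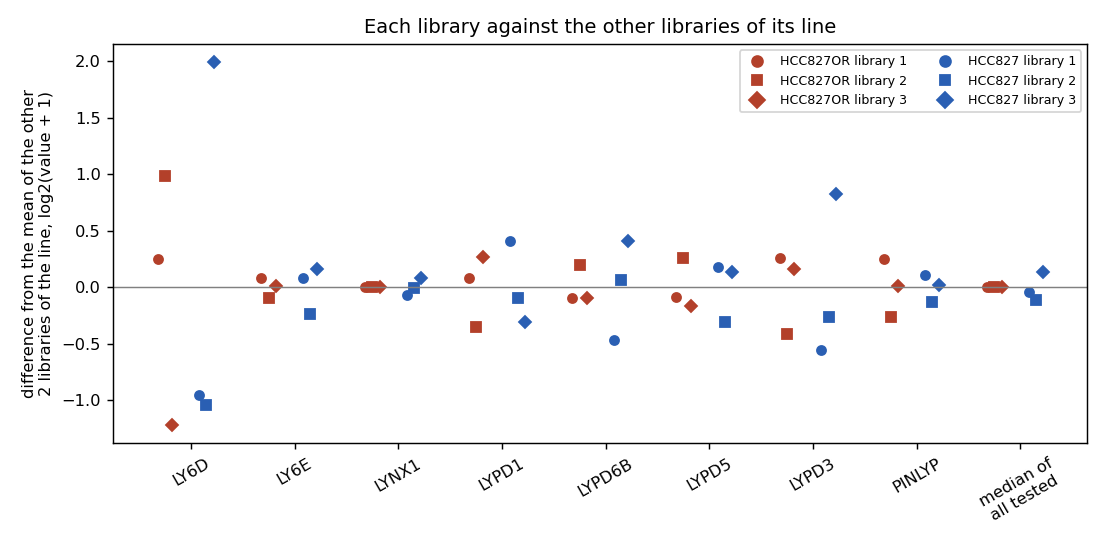
Difference of each library from the mean of the other libraries of its line, in log2(value + 1), for the 8 members and for the median of all tested genes, HCC827OR in red and HCC827 in blue. LY6D in HCC827 library 3 stands highest at 1.99, and LYPD3 in the same library reaches 0.82.

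The genes with profiles most like those of 3 members were found by the root-mean-square difference of centred log2(value + 1) profiles over the 6 libraries. For LY6D they were DEFB4A, OLFM4, CALB1 and DEFB1, with differences of 0.263, 0.386, 0.575 and 0.667. DEFB4A, an antimicrobial defensin with near-identical copies and so uncertain, had 1.85, 2.52 and 0.49 in HCC827OR, against 116.69, 113.02 and 674.4 in HCC827. Its high value in HCC827 library 3 is part of the likeness by which it was picked. For LY6E they were ITGA6, RGL3, SPINT1 and MYLIP, with differences of 0.052 to 0.074, and for LYPD3 they were ZNF37A, BID, PRSS53 and HOXA13, with differences of 0.116 to 0.148. The scale compresses low values, so genes with alike profiles can differ in linear fold. MYLIP had means of 0.617 in HCC827OR and 4.46 in HCC827, and BID had 46.3 and 14.39. ITGA6, the integrin alpha 6 subunit of hemidesmosomes, had 9.66, 9.01 and 10.3 in HCC827OR, against 35.3, 32.21 and 39.63 in HCC827.

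Genes that work with the family were read from lists. The background for each list is all tested genes, of which limma called 52.5% higher and 45.0% lower. In the urokinase receptor system, PLAUR itself having no row, 13 of 22 genes were in the table, of which 10 rose and 3 fell by limma (median log2 fold change 1.97, against 0.74 over all tested genes). The urokinase inhibitor SERPINB2 rose, with 54.67, 52.79 and 55.33 in HCC827OR, and was listed at 0 in all 3 HCC827 libraries (limma adjusted p = 4.05e-07). SERPINB2 thus met the filter through HCC827OR alone. The protease PLAU (urokinase) fell, with 109.58, 99.42 and 109.38 in HCC827OR, against 868.8, 740.35 and 432.67 in HCC827 (log2 fold change -2.61, limma adjusted p = 6.15e-05). The inhibitor SERPINA5 also fell, to 0.187 ± 0.0635 in HCC827OR, against 9.24 ± 2.12 in HCC827. Of the integrin partners, ITGB3 rose (28.1 ± 1.31 in HCC827OR and 1.22 ± 0.16 in HCC827) and ITGB6 fell (0.62 ± 0.0173 in HCC827OR and 50.3 ± 5.73 in HCC827). A further partner, ITGA5, chosen after its values were seen, also rose (138.7 ± 0.365 in HCC827OR and 24.5 ± 11.85 in HCC827). Chosen after its values were seen, AGR2, known as a ligand of LYPD3, had 0.36, 0 and 0 in HCC827OR, against 143.28, 143.33 and 155.62 in HCC827, low in the line where LYPD3 was high.

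Of 98 other GPI-anchored proteins 27 were in the table, and of the 20 tested 13 rose and 7 fell (median log2 fold change 1.12). Over all tested genes the median was 0.74, with 52.5% called higher and 45.0% lower. The glypican GPC4, the netrin-like NTNG2 and the stress ligand ULBP2 rose, GPC4 to 18.1 ± 0.609 in HCC827OR, against 0.343 ± 0.176 in HCC827. The ectonucleotidase NT5E fell to 14.6 ± 0.632 in HCC827OR, against 93.1 ± 5.53 in HCC827. In the assembly of the GPI anchor itself 3 of 32 genes were in the table. The transamidase subunit PIGT rose (135 ± 4.34 in HCC827OR and 60.5 ± 14.2 in HCC827), the mannosyltransferase PIGZ rose and the lipid remodelling gene PGAP3 fell (8.17 ± 0.8 in HCC827OR and 16.9 ± 0.663 in HCC827). Their limma adjusted p-values were 0.000458, 3.35e-05 and 0.000235. PIGZ had 4.04, 3.11 and 3.24 in HCC827OR, against 0.58, 0.55 and 0.62 in HCC827, so it met the filter through HCC827OR alone.

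Among genes of complement lysis and its control, the setting of CD59, 7 of 16 were in the table and of 6 tested 3 rose and 3 fell (median log2 fold change 0.08). The background over all tested genes was 52.5% called higher and 45.0% lower, with a median of 0.74. Clusterin (CLU) rose to 168 ± 3.44 in HCC827OR, against 15.7 ± 2.92 in HCC827, and vitronectin (VTN), also counted in the uPAR list, rose too, while CD46, a membrane cofactor that inactivates complement, fell to 100.1 ± 0.199 in HCC827OR, against 249 ± 34 in HCC827. CFI and C4BPA also fell, with limma adjusted p-values of 1.03e-05 and 2.99e-05. The remaining riser, C4BPB, chosen after its values were seen, had 28.14 ± 4.12 in HCC827OR and 10.55 ± 6.45 in HCC827 (limma adjusted p = 0.0051). Of 24 other LU domain genes, among them the TGF-beta family receptors, 7 were in the table, and of 4 tested TGFBR1 rose (26.4 ± 0.98 in HCC827OR and 4.9 ± 0.653 in HCC827) and ACVR1, BMPR1B and BAMBI fell (median log2 fold change -0.78).

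Squamous differentiation genes, the setting in which LY6D and LYPD3 are best known, were in the table for 10 of 33. Of 5 tested, 3 fell and 2 rose, where 45.0% of all tested genes were called lower and 52.5% higher. Their median log2 fold change was -0.96, against 0.74 over all tested genes. The cell cycle regulator SFN fell to 6.9 ± 1.04 in HCC827OR, against 40.8 ± 3.69 in HCC827, and PERP of desmosomes also fell. The keratin KRT17 rose to 26.5 ± 1.23 in HCC827OR, against 0.653 ± 0.295 in HCC827, and SBSN rose as well. Another keratin, KRT16, chosen after its values were seen, fell to 1.59 ± 0.218 in HCC827OR, against 10.33 ± 6.1 in HCC827 (limma adjusted p = 0.00508). The authors called the 5 untested genes lower. Chosen after their values were seen, these include the basal cell factor TP63 (0.0733 ± 0.0635 in HCC827OR and 0.607 ± 0.235 in HCC827) and SPRR1B, which was listed at 0 in HCC827OR and had 0.32, 0.25 and 2.5 in HCC827.

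**Figure D5:**
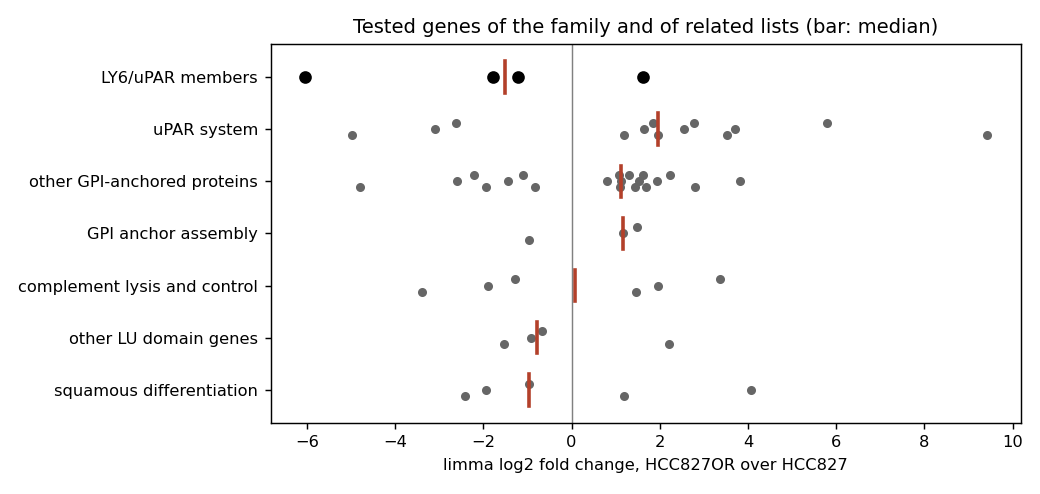
Limma log2 fold change of HCC827OR over HCC827 (horizontal axis) for each tested gene of the family (black) and of related lists (grey), with the median of each row as a red bar. Each list holds genes on both sides of 0, and 10 of 13 genes of the uPAR system lie above it, where 52.5% of all tested genes were called higher.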

How the data were processed

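Messenger RNA of 3 HCC827OR and 3 HCC827 libraries was sequenced after a TruSeq preparation, per the labels' protocols, and groups were taken from sample titles. The authors deposited, per Ensembl gene, a normalized expression signal per library, a ratio (fold change) with its log2 value, and p-values. The unit of the signal, the aligner used on human reads and the test are not given in the sources used here. Bowtie 0.12.2 and mm8, a mouse build, are listed per the submitters' processing notes, although the deposited gene IDs are human. The deposited signal has 2 decimals, so reads could not be recovered.

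Symbols matched 4414 gene IDs, and positions came from GENCODE release 29 on GRCh38. Genes that reached a value of 1 in 3 or more libraries (3332 genes) were tested as log2(value + 1) with limma 3.58.1 (R 4.3.3), mean-variance trend and Benjamini-Hochberg adjustment over all tested genes. The code was tested on simulated data. A linear fold is a ratio of means of genes above 0 in all libraries. All members were named, and of each related list up to 4 genes with the smallest adjusted p and up to 3 that went against its majority. Up to 3 nearest table genes per member were named too. A gene that this rule names is not reported here. Members and lists were chosen with earlier results of these data known. Alternatives covered pseudocount, filter, scaling, variance model, replicate block, threshold and leaving out each library. No library column was left unmapped.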

Additional observations from a re-analysis of the deposited data

How the results depend on the processing

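LY6D, LY6E and LYPD1 stayed lower and LYPD3 higher at a limma adjusted p below 0.05 under all alternatives that tested them. In that order, log2 fold changes were -6.86 to -4.67, -1.99 to -1.65, -1.45 to -0.73 and 0.63 to 2.92. Limma adjusted p-values were at most 0.000609, 0.000185, 0.00352 and 0.00369. Limma called 97.5% of all tested genes in the main test, all of them genes that the authors had already called from these libraries. That a member kept its call is therefore not independent evidence of a difference. With no filter on low values 2 members were called higher and 6 lower, and with a filter at 5 no member was called higher, since LYPD3 was no longer tested. Among the lists, no filter gave 11 lower genes of other GPI-anchored proteins, 6 lower of squamous differentiation and 3 higher of other LU domain genes. The filter at 5 gave 987 higher genes in the table, 1 higher of GPI anchor assembly and 1 higher of squamous differentiation. Fewer or more genes were tested under these filters. Leaving out 1 library at a time left 1 member higher and 3 lower each time, and gave 1717 to 1758 higher and 1439 to 1508 lower genes in the table. Replicate numbers did not pair the libraries, the correlations of same-numbered deviations being 0.026, 0.026 and -0.028 for numbers 1 to 3, and not every library correlated best with its own number. With the replicate block 1750 genes were higher and 1508 lower, with 1 member higher and 3 lower. Median scaling moved the median log2 fold change of all tested genes by -0.16 and upper quartile scaling by 0.1, and the members kept their directions. That median, 0.74 in the main test, was 1.08 with a pseudocount of 0.1 and 0.27 with 5. It was 0.32 with no filter and -0.69 with the filter at 5, so its sign depended on the filter. The differences of LYNX1, LYPD6B, LYPD5 and PINLYP depended on the pseudocount, for example -1.56, -2.51, -1.46 and 2.27 with 0.1. Depth is unknown, so no limit can be set for values listed at 0.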
